A study of Mus musculus with 8 samples.

Results

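Of the 42995 probes in the authors' deposited table of log2 values, 1536 were much brighter in mouse aorta than in liver and stayed near their aortic brightness in cultured aortic smooth muscle cells. They were chosen by deposited values: aorta minus liver had to be 3 or more (at least 8-fold on a linear scale), and aorta minus the mean of the wild-type cultured cells had to lie between -1 and 1 (less than 2-fold). In all, 4707 probes met the first condition, and the members are those that also met the second. The RNA came from Srf knockout aortic smooth muscle cells with an empty adenovirus (2 arrays), wild-type cells with a Myocd adenovirus (2 arrays), wild-type cells with the empty adenovirus (2 arrays), freshly isolated wild-type aorta (1 array) and freshly isolated wild-type liver (1 array). All cultured cells were at passage 3 and had received virus at a multiplicity of infection of 100, 3 days before harvest, so the knockout and control cells carried a virus as well. The labels do not say how Srf was deleted, which promoter drove Myocd, how old the mice were, or whether the 2 arrays of a group stem from separate animals. P-values below thus reflect the spread of these arrays alone, possibly a technical one.

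Vascular smooth muscle cells hold a contractile programme in the vessel wall and lose much of it when they are grown in culture. Serum response factor, encoded by Srf, binds CArG elements in the promoters of contractile and cytoskeletal genes and also in growth-responsive early genes. Myocardin, encoded by Myocd, binds serum response factor and is the coactivator that drives contractile genes in smooth and cardiac muscle. Loss of Srf and gain of Myocd therefore act on the same complex from opposite sides. The question for the 1536 probes was which of these aorta-enriched transcripts needed Srf in culture and which responded to added myocardin.

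No member can be given a gene name, since the files carry only the maker's identifier for each of them. Of the 1536 members, 1521 have identifiers beginning with ASMM10P, 13 with ASMM10UP and 2 with humanlincRNA. These were 3.63% of the ASMM10P probes in the deposited table, 3.56% of its ASMM10UP probes and 0.472% of its humanlincRNA probes. No member came from the 277 mouselincRNA or the 48 MM9LINCRNAEXON probes of the table. No probe was assigned to Srf, Myocd or a smooth muscle marker, so neither the sample labels nor the cell type was checked against its genes. Members may share a transcript: 153 of the 1521 ASMM10P members had another member at the next or previous number (10.1%). No share expected by chance was worked out for this. Over 79 such neighbour pairs, the log2 changes against wild-type cells correlated at 0.25 in the knockout and 0.35 with Myocd (Pearson's r).

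On the deposited scale, the members had a median of 9.51 in aorta and 4.82 in liver, against medians of 7.21 and 7.16 for the whole table. Their aorta minus liver difference had a median of 4.11 and a maximum of 10.87. All 1536 were well above background in aorta, and 777 in liver. The other 759 differences from liver are lower bounds, and 415 members stood at 2.44, the lowest liver value in the table. The median of aorta minus wild-type cells was -0.17, with 633 members higher and 902 lower in aorta. These values chose the members and are given as a description. At the edges of the rule, the nearest member had an aorta minus liver difference of 3.0007 and the nearest probe outside it 2.9981. Toward wild-type cells, the outermost members lay at 0.9956 and -0.9992, and the nearest probes outside at 1.002 and -1.0002. Within 0.1 of the liver threshold were 100 members and 105 probes outside.

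The members were bright in every culture. Their median deposited value was 9.57 on both knockout arrays, 9.66 and 9.60 on the Myocd arrays, and 9.75 and 9.52 on the wild-type arrays, so the knockout and Myocd medians lay between those of the wild-type arrays. Of the 1536 members, 1529 and 1533 were well above background on the knockout arrays, 1530 and 1522 on the Myocd arrays, and 1536 and 1535 on the wild-type arrays. All 1536 entered the test, since a probe was tested if both arrays of any cultured group called it well above background. Replicates differed by a median of 0.13 log2 units for knockout, 0.11 for Myocd and 0.28 for wild-type cells over the members, and by 0.15, 0.15 and 0.29 over all tested probes. The wild-type arrays thus had the widest spread. Across the 8 arrays, the 75th percentile of the processed intensity ranged from 165 in liver to 498 on a knockout array, and no spot was saturated.

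Most members stayed close to their aortic value without Srf and with added Myocd. The mean of the knockout cells was within 1 log2 unit of aorta for 1248 of 1536 members (81.2%), and that of the Myocd cells for 1154 (75.1%), on the deposited scale. Of the rest, 124 were 1 or more above aorta and 164 were 1 or more below it in knockout cells, against 190 above and 192 below with Myocd. In wild-type cells all 1536 were within 1 by the rule. On all 6 cultured arrays together, 799 members (52%) were within 1 log2 unit of aorta. The range over those 6 arrays had a median of 0.90 for the members and 0.82 for the whole table, and it was 3 or more for 66 members (4.3%). Only a small group came near liver: 27 members were closer to liver than to aorta in knockout cells and 28 with Myocd. At least 3 above liver were 1303 members (84.8%) in knockout cells, 1281 (83.4%) with Myocd and 1375 (89.5%) in wild-type cells. These are counts of values with no test. The rule had placed wild-type cells near aorta, so members that changed little between cultures are near aorta by the choice. No such share is given for other probes.

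Without Srf, 209 of the 1536 members fell (13.6%) and 149 rose (9.7%) against wild-type cells, while 1178 did not pass the test. Calls are at 0.05 after Benjamini-Hochberg adjustment of limma p-values over all 44081 tested probes, of which 8.4% fell and 12.2% rose. The median log2 change was -0.12 for the members and 0.07 for all tested probes, and -0.15 and -0.04 with the deposited values. Without wild-type replicate 1 the medians moved to -0.04 for members and 0.05 for all tested probes, and without replicate 2 to -0.19 and 0.09. Falls of at least 4-fold were called for 27 members (1.76%), against 0.726% of all tested probes, and rises of that size for 20 members (1.3%), against 2.62%. The wild-type arrays also entered the rule that chose the members, so this contrast is not independent of it. In bulk RNA, fewer cells of a type and less RNA per cell cannot be told apart. The numbers rest on both knockout arrays: without replicate 1, 59 members fell and 43 rose, and without replicate 2, 76 and 65. Without wild-type replicate 2, 385 fell, and without either Myocd array, which enters only through the spread, 134 fell.

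The members were also sorted into 4 equal groups by wild-type level, which rests on the same wild-type arrays as the knockout contrast and is a description only. In these groups, 9.11%, 13.8%, 18.2% and 13.3% of the members fell in knockout cells, in order from dim to bright, and 11.2%, 9.64%, 6.51% and 11.5% rose. Levels here are log2 processed intensities relative to the 75th percentile of the same array. Members were brighter than most probes, so other tested probes within the members' interquartile range of wild-type level were set beside them. Of the 768 members in that range, 16% fell and 8.07% rose, against 14.8% and 11.2% of the 11319 other probes. Falls of at least 4-fold were called for 2.34% of these members, against 1.12% of these other probes. No test was made of these differences.

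The largest fall measured in both groups belonged to ASMM10P032494. Its levels were -3.22 and -3.32 in knockout cells, 2.37 and 2.36 in Myocd cells, 0.59 and 0.51 in wild-type cells, -0.28 in aorta and -5.77 in liver. Both knockout arrays lay far below both wild-type arrays, and both Myocd arrays far above them. The log2 change was -3.82 in the knockout (SE 0.14, limma adjusted p = 9.34e-05), a 14.1-fold fall, and 1.82 with Myocd (SE 0.14, limma adjusted p = 0.000943). In the alternative called normexp here, background correction with an added offset of 50 was followed by quantile normalization. The knockout change was then smaller, at -2.79, and it was -3.89 with quantile normalization alone.

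ASMM10P041505 was a bright member, with deposited values of 16.37 in aorta, where the upper quartile of the members was 11.29, and 8.69 in liver. Its levels were 3.10 and 2.97 in knockout cells, 8.11 and 8.02 in Myocd cells, and 6.38 and 7.07 in wild-type cells. The 3 groups did not overlap. It fell 12.9-fold in the knockout (log2 change -3.68, SE 0.24, limma adjusted p = 0.000428). It rose 2.54-fold with Myocd (log2 change 1.35, SE 0.24, limma adjusted p = 0.0178), which did not pass once a Myocd array was left out (limma adjusted p up to 0.092).

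Some members fell below detection without Srf or with Myocd: 3 on both knockout arrays, and 6 others on both Myocd arrays. ASMM10P037424, ASMM10P005521 and ASMM10P049487 fell short of the background criterion on both knockout arrays and are named for that reason, after their values were seen. ASMM10P037424 had levels of -5.84 and -5.70 in knockout cells, -3.78 and -3.91 in Myocd cells, -1.66 and -2.08 in wild-type cells, and -0.87 in aorta. Its fall in the knockout was at least 8.65-fold (limma adjusted p = 0.000166), and it was also lower with Myocd (log2 change -1.98, SE 0.19, limma adjusted p = 0.0021). For these 3 probes the fold is a lower bound, taken from the wild-type mean over a floor for the knockout arrays (per array, the dimmest well-measured probe, or the probe itself where that was brighter). ASMM10P005521 fell at least 4.28-fold in the knockout and rose with Myocd (log2 change 2.12, SE 0.25, limma adjusted p = 0.00444), and ASMM10P049487 fell at least 2.01-fold and stood at 0.36 with Myocd (limma adjusted p = 0.348).

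Other members rose without Srf. ASMM10P040244 had levels of 3.23 and 3.34 in knockout cells, -1.62 and -1.90 in Myocd cells, -0.998 and -0.709 in wild-type cells, 0.07 in aorta and -2.98 in liver. It stood far higher on both knockout arrays than on any other array, aorta included, with a 17.6-fold rise (log2 change 4.14, SE 0.18, limma adjusted p = 0.000132). With Myocd its change was -0.91 (SE 0.18, limma adjusted p = 0.0238), a call that passed in 7 of 14 alternatives. ASMM10P026292 had levels of 0.41 and 0.17 in knockout cells, -3.75 and -4.17 in Myocd cells, -3.07 and -3.64 in wild-type cells, and -2.14 in aorta. It rose 12.5-fold in the knockout (log2 change 3.64, SE 0.25, limma adjusted p = 0.000519), while with Myocd it was at -0.60 and did not pass (SE 0.25, limma adjusted p = 0.174). With normexp its knockout change was 2.51.

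With Myocd adenovirus, 177 of the 1536 members rose (11.5%) and 212 fell (13.8%) against the empty virus, and 1147 did not pass. Of all 44081 tested probes, 7.99% rose and 7.2% fell (limma). The median log2 change was -0.15 for the members and -0.02 for all tested probes, -0.07 and -0.04 without wild-type replicate 1, and -0.21 and -0.01 without replicate 2. Rises of at least 4-fold were called for 22 members (1.43%), against 1.88% of all tested probes, and falls of that size for 7 (0.456%), against 0.413%. Among members in the interquartile range of wild-type level, 11.1% rose and 16.5% fell, against 7.59% and 10.5% of other probes in that range. Counting calls of any size, both rises and falls were more frequent among members than in all tested probes and in probes of similar brightness. This did not hold for rises of at least 4-fold. In that range of level, these were called for 1.04% of members and 1.08% of other probes, and falls of that size for 0.651% and 0.477%. No test was made between lists. Slide 2 held the Myocd, aorta and liver arrays and slide 1 the wild-type and knockout arrays, so slide and Myocd cannot be told apart. Without Myocd replicate 1, 62 rose and 57 fell, without replicate 2, 64 and 38, and without either knockout array, which enters only through the spread, 113 and 96. Without wild-type replicate 2, 338 fell, and with no filter on dim probes 128 rose and 108 fell. Which direction held more members therefore depended on the arrays and probes used.

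The largest rises with Myocd came from different starting levels. ASMM10P045419 had levels of 1.59 and 1.46 in Myocd cells, -4.16 and -4.11 in knockout cells, -3.03 and -3.59 in wild-type cells, -1.93 in aorta and -4.95 in liver. Both Myocd arrays lay above aorta and far above all other cultured arrays, with a 28.4-fold rise (log2 change 4.83, SE 0.21, limma adjusted p = 0.000166). In the knockout it was at -0.83 (SE 0.21, limma adjusted p = 0.0416), a call that passed in 6 of 14 alternatives. With normexp its change with Myocd was 3.68. ASMM10P045509 had levels of 5.03 and 5.27 in Myocd cells, 0.31 and 0.43 in knockout cells, 0.17 and 0.51 in wild-type cells, and 0.63 in aorta. It rose 28.1-fold with Myocd (log2 change 4.81, SE 0.18, limma adjusted p = 0.000105). Its knockout arrays lay within the range of the wild-type arrays (log2 change 0.04, SE 0.18, limma adjusted p = 0.907).

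The largest falls with Myocd that were measured in both groups were those of ASMM10P002527 and ASMM10P024872. The 6 members below detection on both Myocd arrays were also called lower with Myocd (limma). Their falls are lower bounds of 1.49-fold to 2.42-fold. ASMM10P002527 had levels of -2.24 and -2.47 in Myocd cells, -0.36 and -0.34 in knockout cells, 0.93 and 0.43 in wild-type cells, 0.97 in aorta and -2.15 in liver. Wild-type cells were near aorta and Myocd cells near liver, just below it on this scale and just above it on the deposited one (6.55 and 6.29 with Myocd, 6.05 in liver). It fell 8.19-fold with Myocd (log2 change -3.03, SE 0.21, limma adjusted p = 0.000632) and 2.05-fold in the knockout (log2 change -1.03, SE 0.21, limma adjusted p = 0.0196), where the second call did not pass once a knockout array was left out (limma adjusted p up to 0.119). ASMM10P024872 had levels of -3.28 and -3.74 in Myocd cells, -0.36 and -0.51 in knockout cells, and -0.87 and -0.38 in wild-type cells. It fell 7.38-fold with Myocd (log2 change -2.88, SE 0.24, limma adjusted p = 0.00132), and its knockout and wild-type arrays overlapped (log2 change 0.19, limma adjusted p = 0.608). With normexp the changes with Myocd were -2.33 for ASMM10P002527 and -1.90 for ASMM10P024872.

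The 2 humanlincRNA members, named after their values were seen, passed in neither contrast. The probe humanlincRNA0055-_P1 had levels of 0.20 and 0.09 in knockout cells, -0.36 and -0.29 in Myocd cells, 0.28 and 0.11 in wild-type cells, and 0.50 in aorta. Its log2 change was -0.05 in the knockout (SE 0.15, limma adjusted p = 0.828) and -0.52 with Myocd (SE 0.15, limma adjusted p = 0.0674). The probe humanlincRNA0255+_P1 was dim and variable, at -4.11 and -4.25 in knockout cells, -4.25 and -4.82 in Myocd cells, and -3.54 and -5.16 in wild-type cells. Its changes of 0.18 and -0.18 had an SE of 0.51 each.

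In the direct comparison of Myocd with knockout cells, neither mean came from an array that had chosen the members, although the wild-type arrays entered through the estimate of spread. Of the 1536 members, 294 were higher with Myocd (19.1%) and 293 were lower (19.1%), against 11.7% and 16.2% of all 44081 tested probes (limma). Differences of at least 4-fold were called for 73 members higher with Myocd (4.75%) and 45 lower (2.93%), against 2.67% and 3.16% of all tested probes. The median log2 difference was -0.03 for the members and -0.08 for all tested probes. In the interquartile range of wild-type level, 21.2% of members were higher and 18.6% lower, against 15.9% and 17.2% of other probes. Slide 2 held the Myocd arrays and slide 1 the knockout arrays, so here too slide cannot be told apart from the groups. With only the Myocd and knockout arrays in the fit, 354 members were higher and 385 lower. Without knockout replicate 1 or 2, 178 and 170 members were higher and 129 and 157 lower. Without Myocd replicate 1 or 2, 176 and 179 were higher and 184 and 141 lower.

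The wild-type mean lay between the Myocd and knockout means for 229 of the 294 members higher with Myocd (77.9%), for 227 of the 293 lower (77.5%), and for 44.4% of all members. A wide gap between these means was what chose the called members, so a larger share between them follows from the choice. Among the 294, the median deposited value was 10.86 with Myocd, 9.50 in knockout cells and 10.18 in wild-type cells, with 9.84 in aorta. Among the 293, it was 8.76 with Myocd, 10.08 in knockout cells and 9.40 in wild-type cells, with 9.78 in aorta. Aorta was closer to the knockout than to the Myocd mean for 182 of the 294 and for 163 of the 293, and for 858 of all 1536 members. The knockout and Myocd contrasts share the wild-type arrays, so no overlap of their calls is given. Their values for the same probes stand side by side here.

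ASMM10P032494 and ASMM10P045419, described above, had the largest differences in favour of Myocd, at 5.64 (SE 0.14, limma adjusted p = 1.71e-05) and 5.66 (SE 0.21, limma adjusted p = 4.04e-05) on the log2 scale, and 4.57 and 4.09 with normexp. In the first, knockout and Myocd cells stood on opposite sides of wild-type cells. In the second, most of the difference lay between Myocd and wild-type cells. ASMM10P006751 had levels of 1.36 and 1.39 in Myocd cells, -3.60 and -3.19 in knockout cells, -0.73 and -0.92 in wild-type cells, -1.03 in aorta and -5.68 in liver. Aorta lay near wild-type cells, with Myocd cells well above and knockout cells well below both. It rose 4.59-fold with Myocd (log2 change 2.20, SE 0.19, limma adjusted p = 0.00142) and fell 5.95-fold in the knockout (log2 change -2.57, SE 0.19, limma adjusted p = 0.000587), the second change being -1.69 with normexp. ASMM10P006751 and ASMM10P044841 were named for opposed changes against wild-type cells, so their shared order of the cultured groups follows from the choice. ASMM10P044841 had levels of 3.78 and 3.87 in Myocd cells, -1.03 and -1.10 in knockout cells, 1.07 and 1.61 in wild-type cells, 1.46 in aorta and -1.14 in liver. Its changes were 2.48 with Myocd (SE 0.21, limma adjusted p = 0.00134) and -2.41 in the knockout (SE 0.21, limma adjusted p = 0.00104). Its knockout level was near that of liver, also on the deposited scale (7.67 and 7.56 in knockout cells, 7.24 in liver).

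The largest differences in the other direction were those of ASMM10P016341 and ASMM10P040244. ASMM10P016341 had levels of -0.22 and -0.36 in Myocd cells, 4.82 and 4.73 in knockout cells, 1.69 and 1.76 in wild-type cells, 1.69 in aorta and -1.84 in liver. Aorta lay close to the wild-type arrays, also on the deposited scale (10.50 in aorta, 10.28 and 10.30 in wild-type cells), and the other groups stood apart on either side. The difference between Myocd and knockout cells was -5.07 (SE 0.14, limma adjusted p = 2.04e-05), with -2.01 for Myocd and 3.05 for knockout against wild type (SE 0.14 each, limma adjusted p = 0.000712 and 0.000153). For ASMM10P040244 the difference was -5.05 (SE 0.18, limma adjusted p = 3.66e-05), and -4.36 with normexp. ASMM10P003407 was named for opposed changes against wild-type cells, as was ASMM10P016341, so that order follows from the choice. ASMM10P003407 had levels of -1.66 and -2.02 in Myocd cells, 2.12 and 2.27 in knockout cells, -0.08 and -0.16 in wild-type cells, and -0.69 in aorta. It fell 3.29-fold with Myocd (log2 change -1.72, SE 0.17, limma adjusted p = 0.0027) and rose 4.97-fold in the knockout (log2 change 2.31, SE 0.17, limma adjusted p = 0.000664).

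The members were not alike across the rule's own measures. For members with an aorta minus liver difference of 3 to 4, 4 to 6 and over 6, the share higher with Myocd than in knockout cells was 13.8% of 717, 23.1% of 603 and 25.9% of 216. The share lower with Myocd than in knockout cells was 21.3%, 17.2% and 16.7% in the same order. The most aorta-enriched members thus stood more often on the Myocd side. The shares also changed with wild-type level. In the 4 groups of that level, from dim to bright, 13.5%, 18%, 24.5% and 20.6% were higher with Myocd than in knockout cells. In the same order, 20.6%, 21.4%, 15.9% and 18.5% were lower. Aortic enrichment was not separated from level, and a role of level was not tested. By aorta minus wild-type cells, in steps of 0.5 from -1 to 1, the share higher with Myocd than in knockout cells was 21.6%, 19.4%, 19.8% and 14%, and the share lower was 12.2%, 16.9%, 21% and 31.3%. Members that were somewhat brighter in aorta than in wild-type cells were more often lower with Myocd than in knockout cells. These shares are a description with no test, and aorta lay on the same slide as the Myocd arrays.

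Aorta-enriched probes that did not keep their level in culture were set beside the members over the same fit, with no test between lists. Of 579 tested probes that were 3 or more higher in aorta than in wild-type cells, 24.9% were higher and 43.4% lower with Myocd than in knockout cells. Of 707 probes that were 1 to 3 higher in aorta, 20.4% were higher and 36.4% lower. Of 1880 probes that were 1 or more lower in aorta than in wild-type cells, 26.9% were higher and 8.72% lower. Among these 4 lists only the members had about equal shares, at 19.1% in each direction. Near-equal shares were not particular to them. Of other tested probes within the members' interquartile range of wild-type level, 15.9% were higher and 17.2% lower. The members are the middle band of aorta minus wild-type cells, the measure that sorted the lists. Within the members the shares also shifted along that measure, as given above, so their balance is an average. Called changes of at least 4-fold between Myocd and knockout cells made up 36.4%, 22.2% and 6.12% of the other 3 lists, in the order above. The share was 7.68% of the members and 5.82% of all tested probes. At that size the members' shares were less equal, at 4.75% higher and 2.93% lower with Myocd. Over all tested probes, 11.7% were higher and 16.2% lower with Myocd than in knockout cells. Against wild-type cells, whose values sorted the lists, 52.5%, 33.8% and 2.87% of the 3 lists rose in the knockout and 8.46%, 11.9% and 30.6% fell. In that contrast 12.2% of all tested probes rose and 8.4% fell.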

How the data were processed

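Each sample was hybridised to a 1-colour Cy3 Agilent array. Per the file headers, the authors used Agilent Feature Extraction 11.0.1.1, and the deposited files hold for each spot a background-subtracted processed intensity, raw median intensities and flags. The authors also deposited log2 values for 42995 probes, with a normalization not given in the sources used here. These followed the scanner values (Pearson's r across probes from 0.997 to 1), had medians of 7.16 to 7.27, and served to choose and place the members. All other values came from log2 processed intensity minus the 75th percentile of each array, with outlier spots left out and spots of 1 probe averaged. For 2 members the fit lacked a value on 1 or more cultured arrays. Group means of the 6 cultured arrays were compared with limma 3.58.1 in R 4.3.3 (lmFit and eBayes, 3 residual degrees of freedom, two-sided) over 44081 probes that both arrays of a cultured group called well above background. The code of the fit was tried on simulated data with independent errors on each array. That is a check of the code and not of the counts given here. The members and lists were chosen with earlier results of these data known. Probes were named as the 2 largest called changes per direction and contrast measured in both groups, and the 2 largest opposed changes per direction. The planned counts of opposed calls are not given, because the contrasts share the wild-type arrays. The gene lists and cell type markers could not be applied without gene names. The number of arrays limits the precision. The files name no mean signal column, so normexp used medians, with an offset of 50 and quantile normalization after it. An added offset by its arithmetic shrinks log2 differences of dim probes. Other scalings, filters, fits, left-out arrays and rules were tried.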

Additional observations from a re-analysis of the deposited data

How the results depend on the processing

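Across 14 alternatives of the fit, the 12 probes named by size of change gave 462 values for called changes, some not printed above. Of these values, 19 lost the call and none changed sign. The probes that were named after their values were seen were not followed across the alternatives. Several of the largest changes were smaller with normexp, as given in the report. The offset of 50 in that setting by itself shrinks log2 differences of dim probes. The knockout changes of ASMM10P024872 and ASMM10P045509, which were not called, changed sign without wild-type replicate 1 (-0.06 and -0.13), and that of ASMM10P045509 also without knockout replicate 2 (-0.03). The counts of members moved more, and their limit is the 2 arrays per group. Leaving out 1 array at a time, which assumes that a lone array varies like the other groups, gave 43 to 168 members higher and 59 to 385 lower in the Srf knockout, 62 to 212 higher and 38 to 338 lower with Myocd, and 170 to 354 higher and 129 to 385 lower with Myocd than in the knockout. With no filter on dim probes, 138 were lower in the knockout and 108 lower with Myocd. With only the groups compared in the fit, 134 were lower in the knockout, and with Myocd 113 were higher and 96 lower. With normexp background correction, quantile scaling, the deposited values, a filter on all 6 cultured arrays, or a trended robust fit, each count stayed within 1.5 times the value in the report. The median of all tested probes in the knockout comparison was 0.07, against -0.03 after quantile scaling and -0.04 with the deposited values.

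The labels do not say whether same-numbered arrays were paired. Deviations from the group means correlated at 0.089 for knockout and Myocd, -0.26 for knockout and wild type and -0.07 for Myocd and wild type. With 2 arrays per group, these values cannot settle whether the arrays were paired. With a replicate block, 139 members were lower in the knockout and 124 lower with Myocd, and the other 4 counts stayed within 1.5 times.

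The rule itself sets the number of members. With aorta minus liver of 2 or more (2662 members), 285 were higher and 319 lower in the knockout, 275 higher and 350 lower with Myocd, and 460 higher and 536 lower with Myocd than in the knockout. With 4 or more (819 members) these were 71 and 125, 113 and 110, and 195 and 140. With aorta within 0.5 of wild type (737 members) they were 69 and 107, 85 and 95, and 144 and 138. Applied to levels scaled by the 75th percentile, the rule gave 1103 members. The same counts were then 112 and 168, 134 and 155, and 230 and 212. Of the 1536 members in the report, 1019 met the rule on that scale and the rest did not. With members chosen on wild-type replicate 2 alone and the fit made without that array, 460 of 1651 were lower in the knockout and 383 lower with Myocd. With replicate 1 used in that way, 166 of 1425 were lower in the knockout and 171 lower with Myocd. The causes of these shifts were not tested, beyond the numbers of members and arrays.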
